A study of Mus musculus with 18 samples.

Results

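The genes examined here encode the extracellular axon guidance ligands and receptors of 8 families: the ephrins and their Eph receptors, the semaphorins with plexins and neuropilins, the Slits with Robo receptors, and the netrins. Members were all probe sets with a single gene symbol that begins with Sema3 to Sema7, Plxna to Plxnd, Epha, Ephb, Efna, Efnb, Robo, Ntn or Nrp followed by a digit, or that is Slit1, Slit2 or Slit3. The rule used gene names alone and found 92 probe sets of 54 genes, out of 12393 genes with a symbol of their own on the array. Each gene was represented by its probe set of highest mean log2 signal over the 18 arrays.

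RNA came from spinal motor neurons of the lumbar cord, cut out by laser, 1000 cells from each of 18 mice, and each mouse was measured on 1 one-colour array. G93A mice carry a human SOD1 transgene with the G93A mutation, used as a model of familial amyotrophic lateral sclerosis, and the controls were non-transgenic littermates without it. Animals of both genotypes had an age of 60, 90 or 120 days, which gave 6 groups of 3 animals, and no treatment was named. Strain, sex and transgene promoter were not given in the sources used here, and the transgene RNA was not examined here.

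Guidance cues steer growing axons during development by changing the actin and microtubule cytoskeleton of the growth cone. Ephrins stay bound to the membrane and signal through Eph tyrosine kinases on contact, and secreted class 3 semaphorins bind neuropilins, which pair with plexins as the signalling receptors. Slits repel axons through Robo receptors, and netrins attract or repel them through Dcc and Unc5 receptors. In the embryonic spinal cord, ephrin and semaphorin signals guide motor axons into the limb, and many of these genes stay active in adult neurons and glia.

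Ephb3, a receptor of the B-type ephrins, was the guidance gene with a genotype difference past the test. At 60 days its signal was about 5.65 times as high in G93A as in control motor neurons, and the G93A signals of that age lay within the range of the older animals. Ephb3 signals in controls were 19.8, 24 and 21.4 (60 days), 124.6, 108.5 and 202.2 (90 days), and 115.2, 173.8 and 97.8 (120 days). Ephb3 signals in G93A animals were 104.8, 118.6 and 147.6 (60 days), 95.8, 56.3 and 62.2 (90 days), and 100.8, 122.3 and 84 (120 days). The 3 controls of 60 days stood alone at 19.8 to 24, while the other 15 arrays lay between 56.3 and 202.2. At 60 days the genotypes did not overlap with G93A high, at 90 days they did not overlap with G93A low, and at 120 days they overlapped. Ephb3 lay above its array's median signal on those 15 arrays and on 0 of the 3 controls of 60 days.

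**Figure D1:**
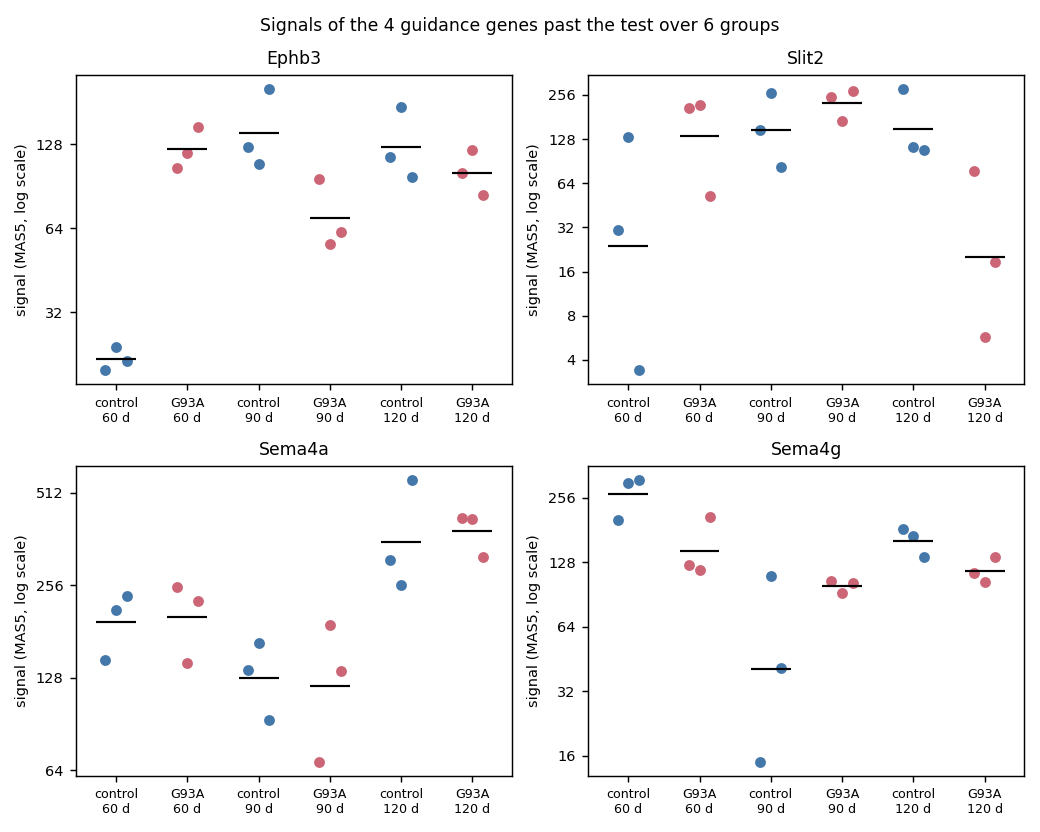
Signals of Ephb3, Slit2, Sema4a and Sema4g on the 18 arrays, in MAS5 signal units on a log scale, with 1 point per animal (blue for controls, red for G93A) and a line at the geometric mean of each group of 3. Ephb3 is low in the controls of 60 days alone (19.8 to 24), whereas Slit2 is low in some animals of both the youngest controls and the oldest G93A group.

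Because Ephb3 carried the clearest difference and Slit2, described further on, also had a higher mean in G93A at 60 days, the 250 bases before the annotated start of each gene are shown (RefSeq, build GRCm38.p6, plus strand). Capitals mark GC boxes, searched as the letters GGGCGG. Near the end of the Slit2 window they also mark a TATA box, searched as TATAAA. The Ephb3 window lies at chr16:21204545-21204794 and the Slit2 window at chr5:47982905-47983154.
Ephb3: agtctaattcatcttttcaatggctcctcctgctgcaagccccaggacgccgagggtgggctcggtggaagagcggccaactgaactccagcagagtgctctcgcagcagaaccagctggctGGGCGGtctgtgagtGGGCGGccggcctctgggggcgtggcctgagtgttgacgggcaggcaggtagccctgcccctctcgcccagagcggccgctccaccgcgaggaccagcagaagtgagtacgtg
Slit2: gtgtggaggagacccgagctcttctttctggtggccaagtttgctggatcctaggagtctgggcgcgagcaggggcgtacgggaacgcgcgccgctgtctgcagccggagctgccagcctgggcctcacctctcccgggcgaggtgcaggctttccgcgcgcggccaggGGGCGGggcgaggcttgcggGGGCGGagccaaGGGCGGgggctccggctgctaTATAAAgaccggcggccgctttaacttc
The Ephb3 window is 65.6% G and C with 16 CpG pairs and held 2 GC boxes. The Slit2 window is 69.6% G and C with 25 CpG pairs and held 3 GC boxes and 1 TATA box. Among 32851 promoter windows of the same length, searched on both strands, 32.7% held a GC box and 12.4% a TATA box by these letters. Neither window held CCAAT (33.8% of windows) or the E-box CACGTG (6.02% of windows). A match is a description of these letters and no sign of a factor's binding.

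On the log2 scale the Ephb3 difference at 60 days was 2.50 ± 0.45 (standard error, n = 3 per group; limma adjusted p = 0.00938). In older animals it was -1.01 ± 0.45 (90 days, limma adjusted p = 0.997) and -0.31 ± 0.45 (120 days, limma adjusted p = 0.829). Its change with age passed the test (limma F test, adjusted p = 0.0177): against 60 days the genotype difference was lower by 3.51 at 90 days and by 2.80 at 120 days. In controls alone Ephb3 rose between 60 and 120 days by 2.53 ± 0.45 (limma adjusted p = 0.00171), while in G93A animals the difference between these ages was -0.28 ± 0.45 (limma adjusted p = 0.818). The 60-day controls entered the genotype difference at 60 days, its change with age and the age difference in controls, so that these 3 calls share the same low arrays.

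Hybridization-control RNA, added to every sample, gave a mean log2 signal of 11.15 in the controls and 9.47 in the G93A arrays of 60 days. With that level as a covariate the Ephb3 difference was 2.77 and the call was lost (limma adjusted p = 0.132). It was also lost when only these 2 groups were fitted (limma adjusted p = 0.169) and without G93A replicate 1 of 60 days (2.61, limma adjusted p = 0.0572). Leaving out 1 of the 18 arrays gave differences from 2.36 to 2.61. The call for the change with age was lost without G93A replicate 1 (limma adjusted p = 0.0653) or replicate 2 (limma adjusted p = 0.0554) of 60 days and without a variance trend (limma adjusted p = 0.0927). The call for the rise with age in controls was lost when only those 2 groups were fitted (limma adjusted p = 0.0659). The Gapdh ratio of 3' to 5' signal, a measure of RNA length, had log2 means of 3.36 for the controls and 4.14 for the G93A arrays of 60 days, and with it as a covariate the difference was 2.81 (limma adjusted p = 0.0468). Summed oligodendrocyte marker signals ran from 11673.8 to 14018.4 in controls and from 13019.3 to 20501.3 in G93A at 60 days, over 8 markers. The sums overlapped, while the mean log2 signals of the same markers did not, at 7.670 to 8.227 in controls and 8.229 to 9.060 in G93A. Summed astrocyte marker signals ran from 1953.9 to 3357.7 in controls and from 2933.3 to 5270.9 in G93A, over 9 markers, and the part of either list in the Ephb3 difference was not tested. In RNA of pooled cells, a change in the kinds of cell captured and a change in the RNA per cell cannot be told apart.

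**Figure D2:**
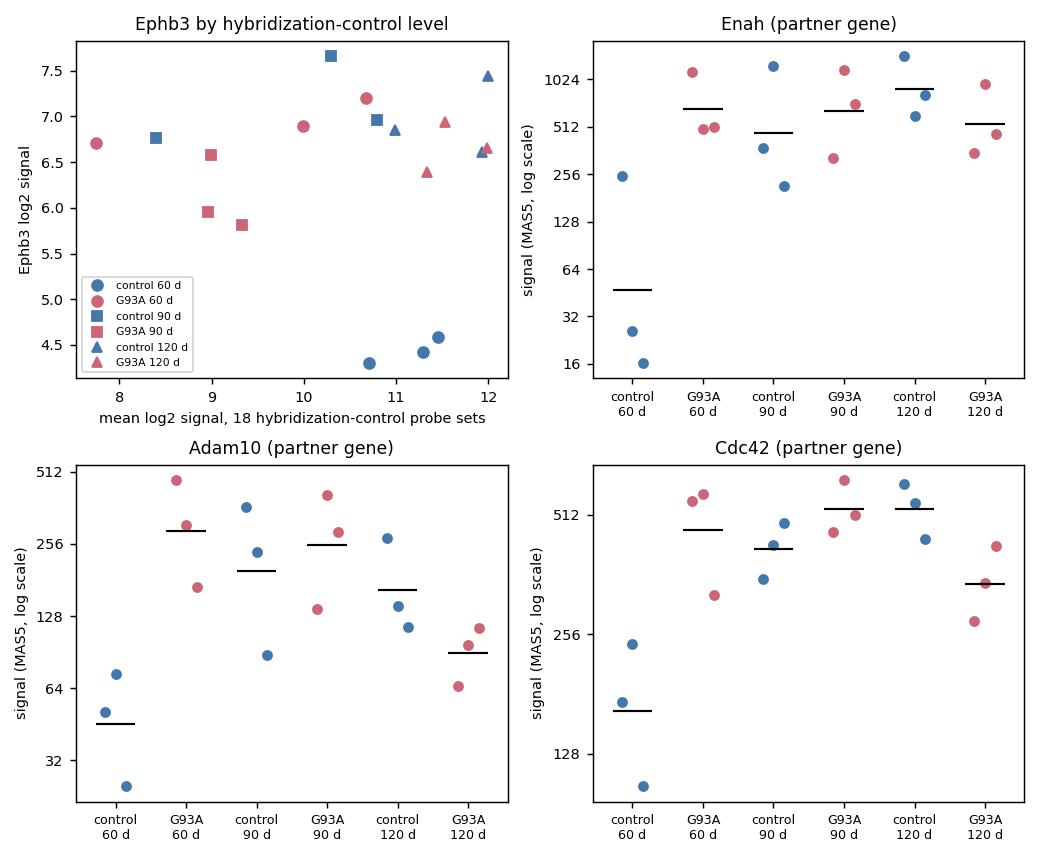
The first panel sets the log2 signal of Ephb3 against the mean log2 signal of the 18 hybridization-control probe sets on each array, with blue for controls, red for G93A and the marker shape for age. The other 3 panels give the signals of the partner genes Enah, Adam10 and Cdc42 on a log scale, with 1 point per animal and a line at the geometric mean of each group. The mean hybridization-control level was 11.15 in the controls of 60 days, 9.47 in G93A of 60 days and 11.64 in the controls of 120 days. These groups also differed in the log2 Gapdh ratio of 3' to 5' signal, with means of 3.36, 4.14 and 4.48. With the hybridization-control level as a covariate the Ephb3 call at 60 days was lost.

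Arrays of a group correlated with a median of 0.742 across probe sets, against 0.685 between groups, so the replicate spread was wide. Of 9 motor neuron markers on the array, Isl2, Prph, Nefh and Nefm lay above the array median on all 18 arrays, while Slc5a7 did so on 2 and Slc18a3 on 0. Glial RNA was present throughout: Mbp of myelin read from 6595.7 to 31699.6, and the summed signal of 10 microglial markers at 120 days ran from 11698.8 to 20917.8 in G93A against 4274.4 to 6984.7 in controls. Aif1 and Olig2, defining markers of microglia and of the oligodendrocyte lineage, were each above the median on 1 array.

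Of the 54 genes, 39 had a signal above the array median on at least 3 of 18 arrays and were tested. At 60 days 1 of 39 was called at a limma adjusted p below 0.05, where 0.688% of all 16565 tested probe sets were. The members at an unadjusted p below 0.05 were 6 (2 higher and 4 lower in G93A), against 12.6% of all tested. At 90 days 0 were called (0% of all tested) and 4 had an unadjusted p below 0.05 (4.56% of all). At 120 days 0 were called (0.0241% of all) and 3 had an unadjusted p below 0.05 (12.2% of all). For the mean of the 3 ages 0 were called (0.0121% of all) and 2 had an unadjusted p below 0.05 (7.74% of all). A change with age in the genotype difference gave 1 call (0.417% of all) and 4 members at an unadjusted p below 0.05 (13.1% of all). At an unadjusted p below 0.05 the members' shares were 15.4%, 10.3%, 7.69% and 5.13% at 60, 90 and 120 days and in the mean of the ages, each resting on 2 to 6 genes, and they are not read as a result about the families. Without G93A replicate 1 of 60 days 0 members were called at 60 days, and without control replicate 1 of 60 days 2 were, Ephb3 and Plxnb3. The change with age gave 0 calls without G93A replicate 1 or 2 of 60 days and 2, Ephb3 and Slit2, without control replicate 2 of 60 days. The share of all tested probe sets called in fits without an array is not given here. Counts from these fits are not read as a result about the members.

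Between 60 and 120 days 1 of 39 was called in controls (6.71% of all tested) and 0 in G93A (2% of all). At an unadjusted p below 0.05 stood 8 members in controls (24.5% of all) and 7 in G93A (16.3% of all). Without control replicate 2 of 60 days 3 members were called in controls, and without control replicate 3 of 120 days 2 were. Without G93A replicate 3 of 120 days 1 member, Robo1, was called in G93A. As with the genotype counts, these fits are given without their share of all probe sets called. Such counts are not read as a result about the members. Any difference among the 6 groups was called for 4 members, Ephb3, Sema4g, Sema4a and Slit2 (8.95% of all), and 10 had an unadjusted p below 0.05 (25.2% of all).

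Over all 54 members, tested or not, the genotype difference had a median of -0.32, -0.21 and 0.20 at the ages of 60, 90 and 120 days on the log2 scale, G93A minus control. Over all 12393 genes the medians were -0.14, -0.04 and 0.12. Between 60 and 120 days the medians were -0.54 for members and -0.31 for all genes in controls, and 0.08 and -0.05 in G93A. With every array shifted to a common median, the all-gene medians became 0.09, 0.11 and -0.20 for the genotype at the 3 ages and the member medians -0.09, -0.06 and -0.11. Between 60 and 120 days in controls they became 0.19 for all genes and -0.04 for members. This scaling shifts all genes alike, and the median of the members minus that of all genes at 120 days was 0.09 with and without it.

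**Figure D3:**
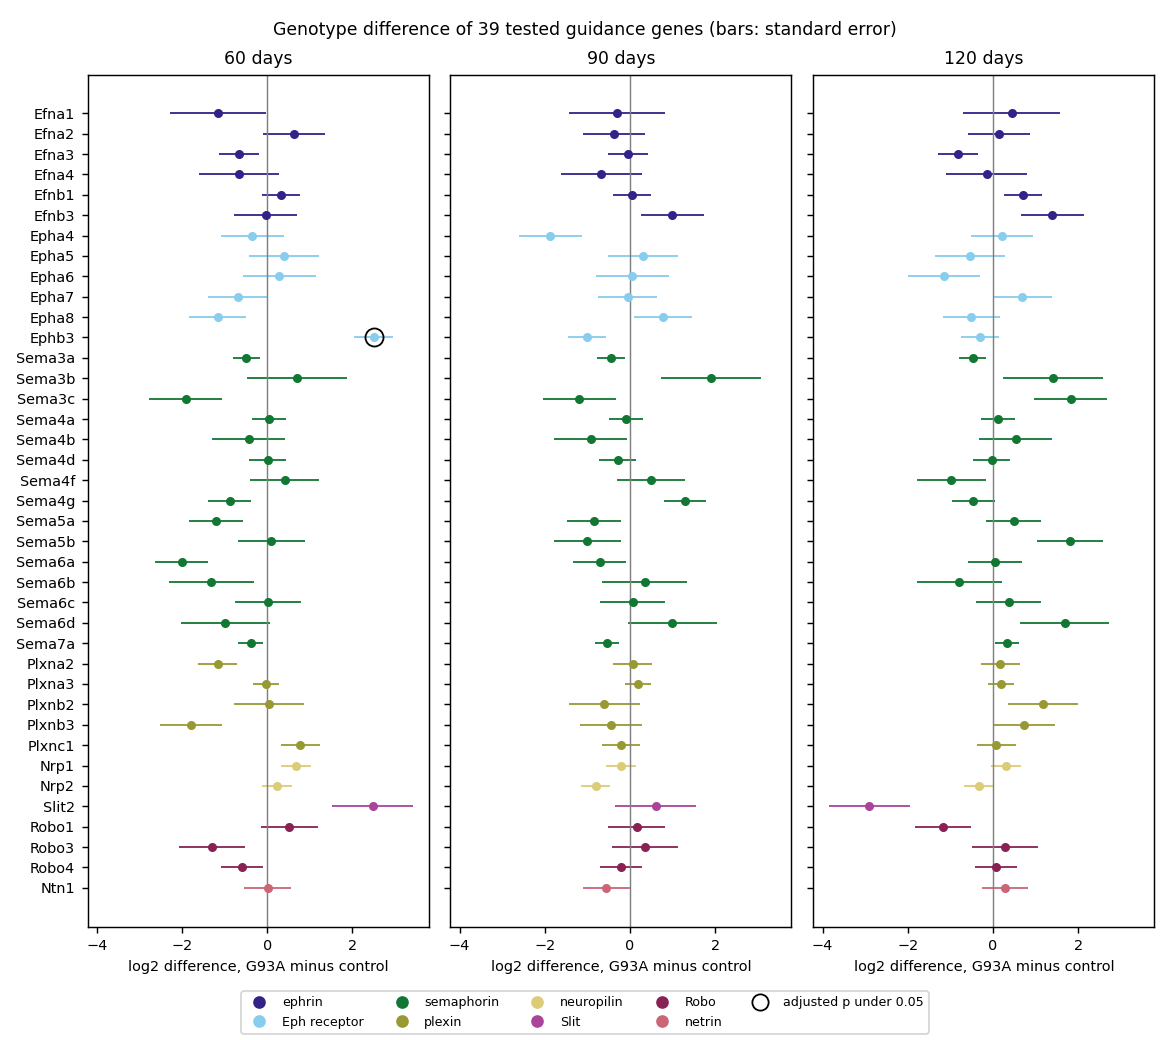
Log2 difference of G93A minus control for the 39 tested guidance genes at 60, 90 and 120 days, coloured by family, with bars of 1 standard error from the limma fit and 3 animals per group. A ring marks an adjusted p below 0.05 and is drawn once, at Ephb3 at 60 days (2.50). Slit2 lies at 2.47 at 60 days and at -2.90 at 120 days.

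The other Eph receptors gave no genotype call. Of 11 Eph receptor genes 6 were tested, and at 60 days their differences ran from -1.16 for Epha8 to 2.50 for Ephb3. Epha4, a receptor of both ephrin classes that guides limb motor axons, had its lowest values in G93A at 90 days. Epha4 signals in controls were 21, 108.7 and 115.9 (60 days), 72.7, 44.5 and 71.4 (90 days), and 36.9, 62.2 and 116.7 (120 days). Epha4 signals in G93A animals were 21.4, 56.8 and 105.8 (60 days), 20.2, 12.1 and 19.4 (90 days), and 56.9, 120.7 and 60.5 (120 days). The 3 G93A animals of 90 days lay at 12.1 to 20.2, below the controls of that age at 44.5 to 72.7, and the genotypes overlapped at the other ages. The log2 difference at 90 days was -1.87 ± 0.74 (limma unadjusted p = 0.018, adjusted p = 0.997). A second tested Epha4 probe set differed by -0.49 at that age. Epha5, a receptor of A-type ephrins, had its lowest mean in the oldest G93A animals and did not pass the test with age. Epha5 signals in controls were 38.3, 50.2 and 56.6 (60 days), 58.8, 55.7 and 46.4 (90 days), and 30.8, 16.3 and 25.1 (120 days). Epha5 signals in G93A animals were 58.5, 56.2 and 75 (60 days), 76.4, 61.5 and 61.7 (90 days), and 24.6, 60 and 2.8 (120 days). The G93A signals of 120 days were spread from 2.8 to 60 and overlapped those of 60 days at 56.2 to 75, and the difference between these ages was -1.97 ± 0.82 (limma adjusted p = 0.22). Without G93A replicate 3 of 120 days, at 2.8, it was -0.71. Controls were also lower at 120 days, with a mean log2 signal of 4.54 against 5.58 at 60 days. Their ages did not overlap (16.3 to 30.8 against 38.3 to 56.6), and this difference was not called. A second tested Epha5 probe set gave 0.69 between these ages in controls and -1.60 in G93A, also without a call.

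Of 8 ephrin ligand genes 6 were tested, and none passed in a genotype comparison. Efnb1 and Efnb3, transmembrane ligands of Eph receptors of the B class, are the members of this family that the naming rule took. Efnb1 signals in controls were 101.8, 129.9 and 224.5 (60 days), 116.2, 67.8 and 134.2 (90 days), and 56.1, 171.3 and 142.5 (120 days). Efnb1 signals in G93A animals were 195, 196.1 and 153.8 (60 days), 73.1, 132.5 and 120.3 (90 days), and 188, 156.6 and 199.2 (120 days). Efnb3 signals in controls were 143.1, 102.6 and 152 (60 days), 19.8, 116.8 and 110.3 (90 days), and 99.9, 10.2 and 151.4 (120 days). Efnb3 signals in G93A animals were 191.1, 116.9 and 92.3 (60 days), 114.9, 84.3 and 206.1 (90 days), and 155.6, 139.7 and 127.9 (120 days). Both genes overlapped between the genotypes at each age. Efnb1 differed by 0.33 ± 0.44, 0.05 ± 0.44 and 0.70 ± 0.44 at 60, 90 and 120 days (limma adjusted p = 0.81, 0.998 and 0.549). Its other tested probe sets gave -0.20 and 1.47 (60 days), -1.20 and -1.64 (90 days), and 0.88 and 1.15 (120 days), without a call. Efnb3 differed by -0.04 ± 0.73, 0.99 ± 0.73 and 1.39 ± 0.73 (limma adjusted p = 0.99, 0.997 and 0.458), and 1 low control of each older age, at 19.8 and 10.2, widened its spread. Across the 6 tested ephrins the difference at 120 days ran from -0.82 for Efna3 to 1.39 for Efnb3.

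Slit2, a secreted ligand of Robo receptors, was the only tested member of the 3 Slit genes. Slit2 signals in controls were 30.8, 132.7 and 3.4 (60 days), 147.7, 264.2 and 83 (90 days), and 282.9, 113.7 and 107.6 (120 days). Slit2 signals in G93A animals were 207.2, 219.2 and 52.4 (60 days), 246.4, 171.2 and 271.7 (90 days), and 78, 5.7 and 18.7 (120 days). G93A animals of 120 days lay at 5.7 to 78, below the controls of that age at 107.6 to 282.9, whereas at 60 days the genotypes overlapped and 2 of 3 controls were under the G93A range of 52.4 to 219.2. The log2 difference was 2.47 ± 0.95 at 60 days (limma unadjusted p = 0.0156, adjusted p = 0.252), 0.61 ± 0.95 at 90 days and -2.90 ± 0.95 at 120 days (limma unadjusted p = 0.00547, adjusted p = 0.219). Neither passed the adjustment over all probe sets, nor did the change with age (limma F test, adjusted p = 0.11), in which the difference of 120 days was lower by 5.37 than that of 60 days. Control replicate 3 of 60 days, at 3.4, weighed on the first value, which was 1.06 without it and 3.71 without control replicate 2.

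Over the 6 groups Slit2 did pass (limma F test, adjusted p = 0.0364). The call held in 9 of 18 fits that left out 1 array, with adjusted p from 0.00668 without control replicate 2 of 60 days to 0.0952 without G93A replicate 2 of 120 days. As covariates, the hybridization-control level (limma adjusted p = 0.215) and the Gapdh ratio (limma adjusted p = 0.0584) each ended it, and it was lost with no variance trend (limma adjusted p = 0.159) and with the mean of both Slit2 probe sets (limma adjusted p = 0.317). The second Slit2 probe set was above the array median on 2 arrays and was not tested. It read from 2 to 89 and differed by 1.25 at 60 days and by 2.45 at 120 days, the latter in the opposite direction to the first. Microglial marker signals, given above, were also higher in the G93A arrays of 120 days. The mean log2 signal of 9 motor neuron markers was lower there, 5.92 to 6.14 in G93A against 6.50 to 7.16 in controls of 120 days and 6.25 to 6.76 in G93A of 60 days. Their summed signals overlapped, at 1096.1 to 1608.4 in these G93A arrays, 1557.5 to 6431.2 in controls of 120 days and 1597.7 to 3036.2 in G93A of 60 days. The part of either marker list in the low Slit2 signals was not tested.

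All 3 Robo receptor genes on the array, Robo1, Robo3 and Robo4, were tested, and 0 passed in any comparison. Robo1, a Slit receptor of neurons, had its lowest mean in the oldest G93A animals. Robo1 signals in controls were 103.6, 37.3 and 88.2 (60 days), 79.4, 107 and 72 (90 days), and 78.7, 54.9 and 33.4 (120 days). Robo1 signals in G93A animals were 101.6, 95.2 and 104.5 (60 days), 71.4, 109.8 and 108.6 (90 days), and 6.9, 25.5 and 71.4 (120 days). The G93A signals of 60 days, 95.2 to 104.5, did not overlap those of 120 days, 6.9 to 71.4. The difference between these ages was -2.11 ± 0.67 in G93A (limma adjusted p = 0.0983) and -0.41 ± 0.67 in controls. The G93A value became -2.92 and passed without replicate 3 of 120 days (limma adjusted p = 0.0269), and became -1.23 without replicate 1 of that group, at 6.9. The mean log2 signal of the motor neuron markers, given beside Slit2, was also lower in the oldest G93A animals than in those of 60 days. The part of these markers in the Robo1 difference was not tested. Robo3, a receptor best known from axons that cross the midline, was highest in young controls. Robo3 signals in controls were 72, 78.4 and 86.1 (60 days), 26.1, 52.9 and 28.2 (90 days), and 23.7, 13.8 and 34.8 (120 days). Robo3 signals in G93A animals were 24.8, 47.7 and 27.6 (60 days), 39.4, 54 and 37.6 (90 days), and 47.5, 7.8 and 54.8 (120 days). The controls of 60 days, 72 to 86.1, lay above those of 120 days and above the G93A animals of 60 days, with no overlap in either case. The difference with age in controls was -1.81 ± 0.77 (limma adjusted p = 0.147), and the genotype difference at 60 days was -1.30 ± 0.77 (limma adjusted p = 0.509).

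**Figure D4:**
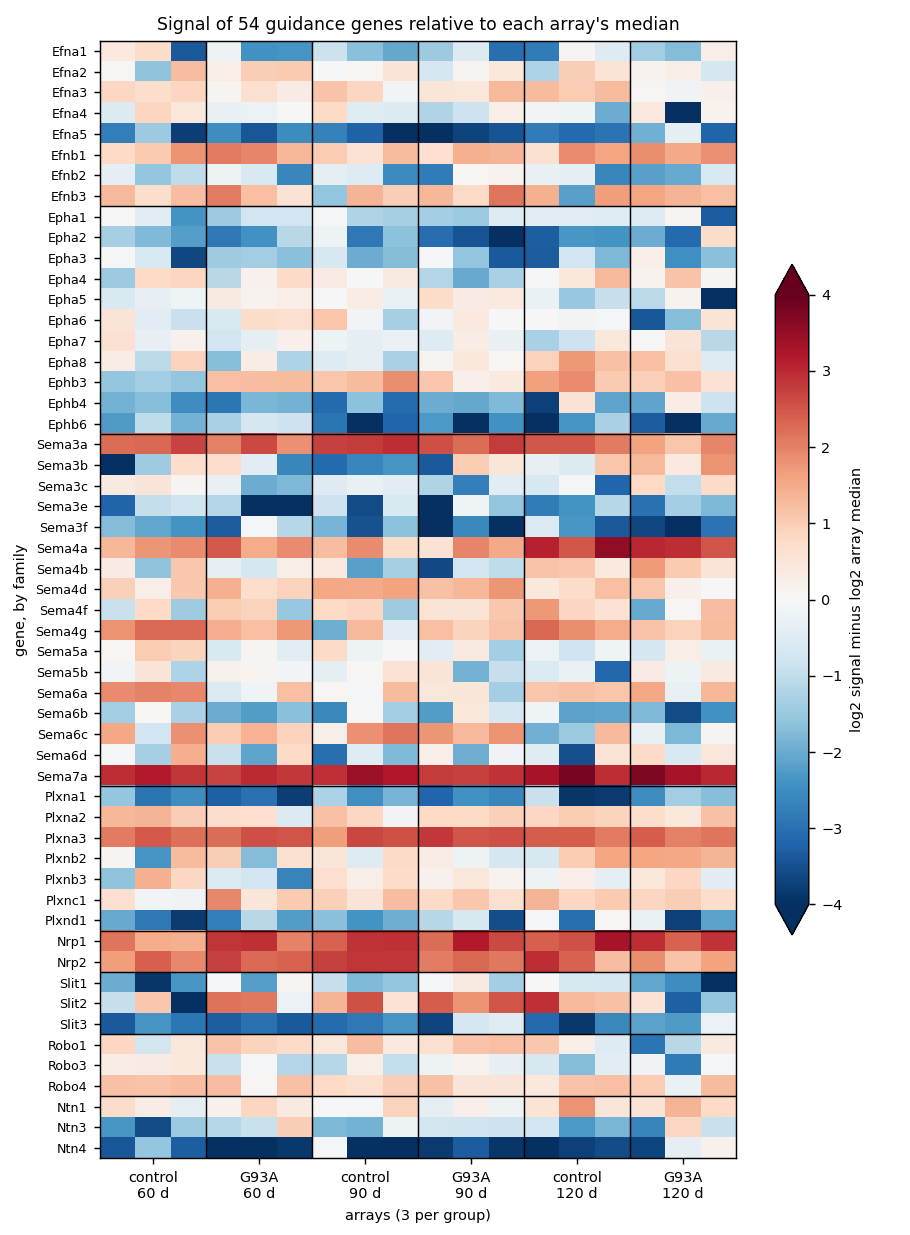
Log2 signal of each of the 54 guidance genes minus the log2 median of its array, for 18 arrays in 6 groups, with genes ordered by family. Red is above and blue below the array median, colours end at 4 and -4 on the log2 scale, and 7 genes (Efnb1, Nrp1, Nrp2, Plxna3, Sema3a, Sema4a and Sema7a) are above it on every array while 6 are on none.

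The semaphorins were the largest family, with 17 genes of which 15 were tested, and 2 of them, Sema4a and Sema4g, differed among the 6 groups. Sema4a, a transmembrane semaphorin known from immune cells and retina, was highest at 120 days in both genotypes. Sema4a signals in controls were 146.6, 212.5 and 236.6 (60 days), 136.3, 166.9 and 93.1 (90 days), and 310.2, 257 and 564.5 (120 days). Sema4a signals in G93A animals were 252.3, 142.9 and 227.9 (60 days), 68.4, 190.1 and 135.3 (90 days), and 423.1, 422.6 and 318 (120 days). The animals of 120 days, 257 to 564.5 in controls and 318 to 423.1 in G93A, lay above those of 60 days of their own genotype. The test over 6 groups gave a limma adjusted p of 0.0156, and the log2 difference between 120 and 60 days was 0.87 ± 0.40 in controls (limma adjusted p = 0.178) and 0.93 ± 0.40 in G93A (limma adjusted p = 0.236). With centred arrays the difference in controls was 1.37 and passed (limma adjusted p = 0.0361). The probe set carries the suffix of cross-hybridizing probes, and the other Sema4a probe set, which read from 5.9 to 90.3, gave no call over the 6 groups (limma adjusted p = 0.809). Summed oligodendrocyte markers were also higher at 120 days, 23044 to 40547.8 in controls, than at 60 days, and their part in the Sema4a difference was not tested. The call over 6 groups was also lost with the mean of both probe sets (limma adjusted p = 0.265), with no variance trend (limma adjusted p = 0.0969), and with a covariate, either the hybridization-control level (limma adjusted p = 0.152) or the Gapdh ratio (limma adjusted p = 0.0856).

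Sema4g, a transmembrane semaphorin, was highest in the controls of 60 days and lowest in the controls of 90 days. Sema4g signals in controls were 202.3, 299.7 and 310.6 (60 days), 15, 110.4 and 40.9 (90 days), and 183.4, 169 and 134.9 (120 days). Sema4g signals in G93A animals were 124.8, 117.7 and 207.4 (60 days), 104.4, 91.8 and 103 (90 days), and 113.6, 103.1 and 136.1 (120 days). Controls of 60 days, 202.3 to 310.6, lay above every other array except G93A replicate 3 of the same age, at 207.4. The test over 6 groups gave a limma adjusted p of 0.0143, which was 0.0806 without a variance trend. At 90 days the genotypes overlapped, and the log2 difference was 1.29 ± 0.50 (limma unadjusted p = 0.017, adjusted p = 0.997). That value was 0.57 without control replicate 1 of 90 days, whose signal of 15 was the lowest of the gene. Its difference at 60 days was -0.88 ± 0.50 and its change with age had a limma adjusted p of 0.238.

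Sema6a, a transmembrane semaphorin that plexin A proteins bind, had the most negative genotype difference at 60 days among the tested members. Sema6a signals in controls were 216.1, 247.2 and 241.4 (60 days), 61.4, 42.6 and 134.1 (90 days), and 79.7, 105 and 103.1 (120 days). Sema6a signals in G93A animals were 30.7, 45.8 and 140.8 (60 days), 62.5, 68.6 and 18.5 (90 days), and 152.6, 44.2 and 141.1 (120 days). Controls of 60 days were tight at 216.1 to 247.2 and lay above all 15 other arrays, of which G93A replicate 1 of 120 days was the highest at 152.6. The log2 difference was -2.01 ± 0.62 at 60 days (limma unadjusted p = 0.00366, adjusted p = 0.138), -0.71 ± 0.62 at 90 days and 0.05 ± 0.62 at 120 days. Averaged over the ages it was -0.89 ± 0.36 (limma adjusted p = 0.572), and in controls the difference between 120 and 60 days was -1.30 ± 0.62 (limma adjusted p = 0.2).

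Sema3a, the secreted semaphorin that collapses growth cones through neuropilin 1 and plexin A receptors, had a lower mean in G93A at each age. Sema3a signals in controls were 273.8, 306.1 and 419.1 (60 days), 385.9, 315.2 and 428 (90 days), and 208.9, 258.8 and 200.6 (120 days). Sema3a signals in G93A animals were 183.2, 317.1 and 218 (60 days), 270.1, 233.2 and 326.6 (90 days), and 157.6, 118.2 and 216.5 (120 days). The genotypes overlapped at every age. The log2 differences were -0.49 ± 0.32, -0.45 ± 0.32 and -0.48 ± 0.32 at 60, 90 and 120 days, and their mean was -0.47 ± 0.18 (9 against 9 animals; limma unadjusted p = 0.0176, adjusted p = 0.556). Sema3a thus had the smallest p of the members in that mean and did not pass. Leaving out 1 array moved the mean between -0.54 and -0.40. Its 2 other probe sets, not tested, gave -2.04 and -2.12 (60 days), -3.03 and -0.28 (90 days), and 2.52 and -0.17 (120 days).

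Sema3c, another secreted class 3 semaphorin, had differences of opposite sign at the youngest and oldest age. Sema3c signals in controls were 74.3, 90.2 and 69.2 (60 days), 40.8, 36.8 and 41.6 (90 days), and 23.6, 43.8 and 5.3 (120 days). Sema3c signals in G93A animals were 37.6, 13 and 17.7 (60 days), 19.8, 7.5 and 35.3 (90 days), and 90.1, 28 and 95.7 (120 days). Controls lay above G93A at 60 days (69.2 to 90.2 against 13 to 37.6) and at 90 days without overlap, and the genotypes overlapped at 120 days. The log2 difference was -1.91 ± 0.85 in the youngest animals (limma adjusted p = 0.343) and 1.82 ± 0.85 in the oldest (limma adjusted p = 0.393). The change with age had an unadjusted p of 0.0116 and a limma adjusted p of 0.227. In controls the difference between 120 and 60 days was -2.13 ± 0.85 (limma adjusted p = 0.123), and without control replicate 3 of 120 days, at 5.3, it was -1.27.

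Of the class 5 and class 6 semaphorins, 3 further genes met the naming rule and 0 passed the test. Sema5b, a transmembrane semaphorin with thrombospondin repeats, differed at 120 days. Sema5b signals in controls were 53.9, 88.6 and 27.4 (60 days), 44.5, 46.4 and 83.4 (90 days), and 25, 38.7 and 5.4 (120 days). Sema5b signals in G93A animals were 51.2, 55.1 and 56.9 (60 days), 65.4, 13.3 and 24.7 (90 days), and 64.7, 48.1 and 71.9 (120 days). G93A animals of 120 days, 48.1 to 71.9, lay above the controls, 5.4 to 38.7, with a log2 difference of 1.81 ± 0.78 (limma adjusted p = 0.35) that was 0.96 without control replicate 3. Sema5a, its close relative, was highest in young controls. Sema5a signals in controls were 61.6, 126.2 and 119.1 (60 days), 99.5, 39.8 and 55.4 (90 days), and 31.3, 26.8 and 42.4 (120 days). Sema5a signals in G93A animals were 30.1, 55.2 and 46.1 (60 days), 32.9, 62.7 and 18.3 (90 days), and 32.4, 65.3 and 46.6 (120 days). The controls of 60 days did not overlap those of 120 days or the G93A animals of 60 days, and the difference with age in controls was -1.57 ± 0.64 (limma adjusted p = 0.132). Sema6c, of the same class as Sema6a, was low at 120 days in both genotypes. Sema6c signals in controls were 168.6, 36.5 and 229.1 (60 days), 68.6, 161.7 and 245.5 (90 days), and 9.8, 16.6 and 117.1 (120 days). Sema6c signals in G93A animals were 92.9, 134.2 and 117.3 (60 days), 155, 120.7 and 163.9 (90 days), and 42.6, 15.8 and 60.9 (120 days). The log2 difference between 120 and 60 days was -2.07 ± 0.77 in controls (limma adjusted p = 0.0987) and -1.72 ± 0.77 in G93A (limma adjusted p = 0.262). In G93A the ages did not overlap, in controls they did, and the difference in controls passed the test when replicate 2 of the 60-day or replicate 3 of the 120-day controls was left out.

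Sema7a, the semaphorin anchored to the membrane by a lipid, and Sema4d, a ligand of plexin B receptors, were named for their level. Sema7a signals in controls were 450, 563.1 and 466.5 (60 days), 439.9, 500.9 and 509.1 (90 days), and 364.9, 644.2 and 367.2 (120 days). Sema7a signals in G93A animals were 295.7, 404.8 and 438.6 (60 days), 314.1, 326.7 and 353.3 (90 days), and 688.5, 552.9 and 453.5 (120 days). G93A animals lay below controls without overlap at 60 days (295.7 to 438.6 against 450 to 563.1) and at 90 days (314.1 to 353.3 against 439.9 to 509.1), and the genotypes overlapped at 120 days. The log2 differences of Sema7a were -0.39 ± 0.29, -0.54 ± 0.29 and 0.33 ± 0.29 (limma adjusted p = 0.616, 0.997 and 0.678). Sema4d signals in controls were 112.1, 74.5 and 135.4 (60 days), 170.5, 129.4 and 169.2 (90 days), and 49.7, 77.1 and 108.9 (120 days). Sema4d signals in G93A animals were 121.6, 82.5 and 116.8 (60 days), 103, 124 and 159 (90 days), and 111.1, 63.3 and 55.4 (120 days). Sema4d overlapped between the genotypes at every age and differed by 0.02 ± 0.44, -0.29 ± 0.44 and -0.03 ± 0.44. Across the 15 tested semaphorins the genotype difference ran from -2.01 to 0.70 at 60 days, with 6 above 0, and from -0.98 to 1.82 at 120 days, with 10 above 0.

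Both neuropilins, the binding receptors of class 3 semaphorins, were above the array median on all 18 arrays. Nrp1 signals in controls were 255.4, 174.1 and 172.4 (60 days), 300.2, 337.5 and 424.2 (90 days), and 193.4, 273.4 and 468.1 (120 days). Nrp1 signals in G93A animals were 329, 385.5 and 244.4 (60 days), 212, 442.2 and 297.4 (90 days), and 402.8, 279.9 and 411.8 (120 days). Nrp1 overlapped between the genotypes at 60 days and later and differed by 0.67 ± 0.35, -0.21 ± 0.35 and 0.30 ± 0.35 (limma adjusted p = 0.44, 0.997 and 0.774). A second Nrp1 probe set gave 2.11 ± 0.68 at 60 days (limma adjusted p = 0.156), 0.03 at 90 days and -1.07 at 120 days. Another tested Nrp1 probe set gave 1.94, 0.24 and -0.42 at these ages. At 120 days both had the opposite sign to the representative, and neither was called. Nrp2 signals in controls were 184.3, 329.5 and 244.7 (60 days), 382.8, 330.4 and 400.3 (90 days), and 284.5, 239.9 and 113.5 (120 days). Nrp2 signals in G93A animals were 301.9, 245.8 and 320.4 (60 days), 189.8, 242.7 and 204.4 (90 days), and 188.3, 121.2 and 171.7 (120 days). Nrp2 was lower in G93A at 90 days, 189.8 to 242.7 against 330.4 to 400.3, with no overlap and a log2 difference of -0.81 ± 0.35 (limma unadjusted p = 0.0285, adjusted p = 0.997). Its G93A signals of 120 days lay below those of 60 days, also without overlap, with a difference of -0.87 ± 0.35 (limma adjusted p = 0.199).

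Of 7 plexin genes 5 were tested and 0 passed in any comparison. Plxna2, a signalling receptor of class 3 and class 6 semaphorins, was high in young controls. Plxna2 signals in controls were 146.6, 158.9 and 125.7 (60 days), 131.1, 81.1 and 50.9 (90 days), and 65.2, 94.4 and 88.1 (120 days). Plxna2 signals in G93A animals were 75, 81.7 and 42.6 (60 days), 78.6, 85.8 and 91.9 (90 days), and 84.6, 73 and 126 (120 days). At 60 days the controls, 125.7 to 158.9, did not overlap G93A, 42.6 to 81.7, and the log2 difference was -1.16 ± 0.46 (limma unadjusted p = 0.018, adjusted p = 0.27). Plxna3, its relative, was named for its level. Plxna3 signals in controls were 242.9, 342.6 and 292.8 (60 days), 184.6, 286.4 and 325.4 (90 days), and 198.4, 250.2 and 203.8 (120 days). Plxna3 signals in G93A animals were 215.9, 304 and 350.6 (60 days), 323.5, 280.9 and 283.3 (90 days), and 278, 223.4 and 245.6 (120 days). Its genotype differences were -0.03 ± 0.30, 0.19 ± 0.30 and 0.20 ± 0.30, each smaller than its standard error, and the groups overlapped at every age. Plxnb3, a plexin of the B class expressed in oligodendrocytes, was low in G93A at 60 days. Plxnb3 signals in controls were 19.2, 168.9 and 113.4 (60 days), 91.9, 54.9 and 92.3 (90 days), and 31.9, 53.4 and 36.3 (120 days). Plxnb3 signals in G93A animals were 31.5, 29.8 and 9.6 (60 days), 51.5, 66.9 and 52.5 (90 days), and 69.1, 97.9 and 40.7 (120 days). The genotypes overlapped through control replicate 1 of 60 days, at 19.2, and the log2 difference was -1.78 ± 0.73 (limma adjusted p = 0.29). Without that array it was -2.73 and passed (limma adjusted p = 0.0434). In G93A the difference between 120 and 60 days was 1.64 ± 0.73 (limma adjusted p = 0.256).

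Of 3 netrin genes Ntn1 was tested. Ntn1 signals in controls were 96.7, 76.8 and 49.4 (60 days), 58.8, 43.8 and 102.3 (90 days), and 54.3, 161.3 and 67.3 (120 days). Ntn1 signals in G93A animals were 51.5, 92.5 and 79.2 (60 days), 34.9, 57.3 and 41.4 (90 days), and 77.2, 141.1 and 96.7 (120 days). Ntn1, the secreted ligand of Dcc, differed by 0.01 ± 0.55, -0.56 ± 0.55 and 0.28 ± 0.55 at the 3 ages, and the genotypes overlapped at each.

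The 15 members that were not tested were Efna5, Efnb2, Epha1, Epha2, Epha3, Ephb4, Ephb6, Ntn3, Ntn4, Plxna1, Plxnd1, Sema3e, Sema3f, Slit1 and Slit3. Their signals were above the array median on 0 to 2 arrays. Of the 54 genes 30 had a single probe set. The other 24 had 38 further probe sets, whose log2 signals correlated with the representative over the 18 arrays with a median Pearson r of 0.11 (from -0.49 to 0.65), a description over arrays that share their groups. Of these probe sets 12 were tested and 0 were called in any comparison, and the sign of the genotype difference matched that of the representative in 7, 5 and 7 of 12 at 60, 90 and 120 days.

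Genes that work beside these ligands and receptors were read from a list of 79 co-receptors, adhesion partners and cytoplasmic effectors, of which 64 were on the array and 60 were tested. The list was chosen with earlier results of these data known. Its shares of calls, here and below, are therefore not read as a result about the list. At 60 days 3 of the 60 rose in G93A and 0 fell, where 0.688% of all tested probe sets were called and 63 of the 66 called genes of the whole array were higher. Enah, an actin filament regulator of the growth cone, rose by 3.82 ± 0.72 (limma adjusted p = 0.0148). Enah signals in controls were 248.4, 25.9 and 16.3 (60 days), 377.4, 1250.3 and 214.3 (90 days), and 1441.1, 602 and 814 (120 days). Enah signals in G93A animals were 1139, 499.1 and 514.4 (60 days), 323.7, 1181.1 and 713.4 (90 days), and 347.9, 956.2 and 457.9 (120 days). The controls of 60 days, 16.3 to 248.4, lay below the G93A animals, 499.1 to 1139. Adam10, a protease that cleaves ephrins and other surface proteins, rose by 2.69 ± 0.54 (limma adjusted p = 0.0217). Adam10 signals in controls were 50.9, 73 and 24.9 (60 days), 366.4, 236 and 87.7 (90 days), and 271.2, 140.6 and 115.1 (120 days). Adam10 signals in G93A animals were 474.2, 308.6 and 168.8 (60 days), 137.4, 408.5 and 286.4 (90 days), and 65.5, 97.1 and 114.6 (120 days). Controls of 60 days, 24.9 to 73, lay below G93A, 168.8 to 474.2, and the older groups of both genotypes ran from 65.5 to 408.5. Cdc42, a small GTPase that drives actin assembly, rose by 1.52 ± 0.32 (limma adjusted p = 0.025). Cdc42 signals in controls were 172.2, 241.7 and 105.8 (60 days), 351.8, 428.7 and 487.9 (90 days), and 612, 546.9 and 444.1 (120 days). Cdc42 signals in G93A animals were 555.3, 577.7 and 321.8 (60 days), 463.5, 627.3 and 512.1 (90 days), and 276.3, 343.9 and 426.3 (120 days). Controls of 60 days, 105.8 to 241.7, were again the low group. The count of 3 became 0 with the mean of all probe sets of a gene and with no variance trend. It also became 0 with either array measure (hybridization controls or Gapdh ratio) as a covariate. Among the 60-day arrays, it became 0 without G93A replicate 1, 0 without control replicate 3, and 1, Enah, without G93A replicate 2.

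At 90 and 120 days and for the mean of the ages 0 partner genes were called (0%, 0.0241% and 0.0121% of all tested probe sets). An unadjusted p below 0.05 was found for 4, 4 and 11 of 60 (4.56%, 12.2% and 7.74% of all). Limk1, the kinase that inactivates the actin-severing protein cofilin, had the smallest p in the mean of the ages. Limk1 signals in controls were 1596.1, 1656.4 and 2398.1 (60 days), 815.1, 699.1 and 1383 (90 days), and 1874.2, 1960.2 and 1083.7 (120 days). Limk1 signals in G93A animals were 384.9, 1266.4 and 923.3 (60 days), 343.6, 559.4 and 397.9 (90 days), and 1178.9, 942.2 and 552 (120 days). The log2 difference was -1.10 ± 0.23 (9 against 9 animals; limma unadjusted p = 5.75e-05, adjusted p = 0.119). Limk1 passed on the log2(signal + 16) scale, and when replicate 2 of the 60-day G93A group or replicate 2 of the 90-day controls was left out. A change with age in the genotype difference was called for 0 of 60 partners (0.417% of all), with 8 at an unadjusted p below 0.05 (13.1% of all). The limma adjusted p was 0.0659 for Adam10 and 0.0669 for Cdc42 and Enah.

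Between 60 and 120 days 6 of 60 partner genes changed in controls (10%, against 6.71% of all tested probe sets). The count was 10 with centred arrays, 3 when only these groups were fitted, and 1 with the mean of all probe sets of a gene or with the Gapdh ratio as a covariate. The share of all probe sets called under each of these settings is not given here. Enah rose by 4.24 ± 0.72, Cdc42 by 1.69 ± 0.32, Adam10 by 1.86 ± 0.54 and Ptpn11, a phosphatase of receptor signalling, by 1.55 ± 0.36 (limma adjusted p = 0.00118, 0.0029, 0.0392 and 0.0117). Fes, a tyrosine kinase in plexin signalling, and Mical2, an oxidase that disassembles actin, had log2 differences of -3.38 ± 0.88 and -1.65 ± 0.44 (limma adjusted p = 0.023 and 0.0255). Fes signals in controls were 81.7, 108.2 and 80.7 (60 days), 23.1, 7.9 and 17.1 (90 days), and 18.3, 11.1 and 3.1 (120 days). Fes signals in G93A animals were 55.9, 49.1 and 55.7 (60 days), 21.9, 12.9 and 31 (90 days), and 10.8, 6.2 and 5.9 (120 days). Fes was low in both genotypes at 90 and 120 days, on a probe set marked as cross-hybridizing. Without control replicate 1 of 120 days 3 of the 6 were called, Cdc42, Enah and Fes. In G93A 0 of 60 changed between these ages (2% of all tested probe sets), with 8 at an unadjusted p below 0.05 (16.3% of all). Cfl1, which encodes cofilin, had a limma adjusted p of 0.0538, and its probe set is marked as cross-hybridizing like that of Fes. Over the 6 groups 8 were called (13.3%, against 8.95% of all tested probe sets): Enah, Cdc42, Limk1, Adam10, Cfl1, Sdcbp, Fes and Cdk5. That count was 0 with the mean of all probe sets, 1 with no variance trend and 3 with the hybridization-control level as a covariate.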

How the data were processed

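RNA of laser-captured lumbar motor neurons of 18 mice was hybridized to 1 array each, and the labels gave each array's group. The authors deposited 1 linear signal intensity for each probe set and array. The submitters' processing notes name MAS5, and its version was not given in the sources used here. Of 22690 probe sets 64 are controls. Gene symbols came from the platform annotation (20380 probe sets with 1 symbol, 691 with several, 1555 with none), and all 54 members matched a mouse gene table of GRCm38.p6 by Entrez identifier.

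Signals under 1 were set to 1 (0 of 972 member values) and put on the log2 scale without further normalization. Probe sets above the array median in at least 3 of 18 arrays were tested with limma 3.58.1 in R 4.3.3: a model of 6 group means, contrasts and moderated variances (eBayes) that follow a trend in level, 12 residual degrees of freedom, two-sided, with Benjamini-Hochberg adjustment over 16565 probe sets in each of 8 comparisons. An adjusted p below 0.05 counted as a call. Errors are standard errors of this fit. The pipeline was tested on simulated data. The number of arrays limits the precision, and no scan dates were given in the sources used here.

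Signals are given for members past the test, the 10 of highest mean log2 signal, and up to 4 per direction and comparison of smallest unadjusted p below 0.05. Partner genes are named if called or among the 3 of smallest p. Members, partner and marker lists were chosen with earlier results of these data known. Signals of different probe sets are not compared in level. How often the signals of compared groups lack overlap over all probe sets is not given here. A lack of overlap is therefore a description of the animals and not a test. Alternatives covered the treatment of low signals, filter, scaling, choice of probe set, variance trend, 2 array measures as covariates, the samples fitted, a replicate block and leaving out each array.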

Additional observations from a re-analysis of the deposited data

Results flagged for a closer look

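The genotype difference of Ephb3 differed between the ages, by a test of that change. In animals of 60 days it was 2.50 on the log2 scale, in those of 90 days -1.01 and in the oldest -0.31. The limma F test of its change with age gave an adjusted p of 0.0177, with 3 animals per group. The 3 G93A animals lay above the 3 controls in the youngest group, below them at 90 days, and overlapped them at 120 days.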

How the results depend on the processing

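With 3 animals per group, and a median correlation of 0.742 between arrays of a group, small differences are out of reach, and signals near or under the array median have little order. Under no alternative tried did a called difference of a guidance gene, or one of a guidance gene named for its p, turn its sign. Partner genes were followed by their counts of calls, and the signs of their differences were not checked. Counts of guidance genes at 90 and 120 days and in the mean of the ages were 0 under every alternative and with each array left out. At 60 days the count of 1 became 0 with the hybridization-control level as covariate and when only the groups compared were fitted. With an array left out it ran from 0 to 2. For the change with age the count of 1 became 0 with no variance trend and 2 with the replicate block, and ran from 0 to 2 with an array left out. In controls the count of 1 with age became 2 with centred arrays and 0 when only the groups compared were fitted, and ran from 1 to 3 with an array left out. In G93A the count of 0 ran from 0 to 1 with an array left out. Over the 6 groups the count of 4 became 1 with no trend and 2 with either array measure (hybridization controls or Gapdh ratio) as covariate, and ran from 3 to 5. Partner genes at 60 days went from 3 to 0 with the mean of all probe sets, with no trend and with either covariate, and ran from 0 to 3 with an array left out. Their count for the mean of the ages was 1 on the log2(signal + 16) scale and ran from 0 to 1, and at 90 and 120 days it stayed at 0. Their change with age went from 0 to 3 on that scale, with signals under 16 set to 16 and with centred arrays, and to 1 with the replicate block, and ran from 0 to 2. In controls their count of 6 became 10 with centred arrays, 1 with the mean of all probe sets, 1 with the Gapdh ratio and 3 when only the groups compared were fitted, and ran from 3 to 8. In G93A it went from 0 to 1 on the log2(signal + 16) scale, with signals under 16 set to 16, with the filter of 9 arrays, with centred arrays, with the Gapdh ratio and when only the groups compared were fitted, and ran from 0 to 1. Over the 6 groups their count of 8 became 0 with the mean of all probe sets, 1 with no trend and 3 with the hybridization-control level, and ran from 6 to 9. These counts are given without the share of all probe sets called in the same fit. They describe the dependence on processing and are not read as results about either list. The causes of these shifts were not tested. Animals of the same number and age deviated from their group means with correlations from -0.12 to 0.06. With means of 3 arrays these values cannot settle whether the numbers pair animals, and the labels do not say. With the replicate block the Ephb3 difference at 60 days had an adjusted p of 0.0236, its change with age of 0.0476, and the change with age of Slit2 of 0.0328 in place of 0.11. Fits of only the groups compared were not run for comparisons that need all 6 groups. On the log2(signal + 16) scale the Ephb3 difference at 60 days was 1.88.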

Other observations

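Efna3, a lipid-anchored ligand of EphA receptors, is a tested member whose signals the rule for named genes did not call for, and it was chosen here after its values were seen. Efna3 signals in controls were 104, 102.1 and 116.6 (60 days), 126.9, 82.9 and 51.1 (90 days), and 88.1, 92.9 and 114.5 (120 days). Efna3 signals in G93A animals were 49.9, 79.4 and 77.3 (60 days), 64, 67 and 115.3 (90 days), and 53.2, 50 and 64.3 (120 days). G93A animals lay below controls without overlap at 60 days (49.9 to 79.4 against 102.1 to 116.6) and at 120 days (50 to 64.3 against 88.1 to 114.5), and the genotypes overlapped at 90 days. The log2 differences were -0.67 ± 0.47, -0.04 ± 0.47 and -0.82 ± 0.47, and none passed the test (limma adjusted p = 0.592, 0.999 and 0.504). Sema3b, a secreted class 3 semaphorin, was likewise chosen after its values were seen, as the member of the highest mean genotype difference over the 3 ages. Sema3b signals in controls were 2.7, 23.4 and 104.3 (60 days), 6.7, 7.5 and 10.8 (90 days), and 29.5, 31.6 and 102.4 (120 days). Sema3b signals in G93A animals were 74.6, 36.8 and 10.2 (60 days), 4.4, 99.1 and 65.6 (90 days), and 126.7, 71.3 and 195.4 (120 days). The genotypes overlapped at each age, and the mean difference was 1.34 ± 0.68 (limma adjusted p = 0.676).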
